A study of Mus musculus with 33 samples.

Results

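Skin resident memory CD8 T cells that had recently signalled through the T cell receptor (TCR) were compared with quiet cells of the same treatment arm. The comparison rests on 4 of the 33 samples of the series: the day 1 samples whose column header carries the code 4, which are 2 GFP-positive samples and 2 GFP-negative samples, lettered A and B. All 11588 genes that passed a filter on low counts were tested, out of 18054 in the count table. Cells were live CD45+CD8+CD69+CD103+ cells sorted from the skin of Nur77GFP mice allergic to dinitrofluorobenzene (DNFB), taken 24 hours after the skin was exposed to DNFB again. The header gives a code and not a treatment, so the arm received either acetone, the vehicle, or 0.01% TA, a topical corticosteroid, and both its GFP states share that treatment. The second day 1 arm, code 3, has the same layout (2 GFP-positive and 2 GFP-negative samples), and 3 GFP-negative samples from acetone-treated skin at day 0, just before the DNFB retest, give a baseline. The strain behind the reporter, the age of the mice, and whether animals were pooled are details that the sources used here leave out.

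Resident memory T cells (TRM) stay in a tissue after an immune response and carry CD69 and CD103, and CD103 binds E-cadherin on epithelial cells. When the TCR meets its antigen, calcium, Ras and NF-kB pathways switch on immediate early genes such as Nr4a1, then genes for chemokines, cytokines and costimulatory receptors. In Nur77GFP mice, GFP is made under control of the Nr4a1 promoter, so that GFP marks cells with recent TCR signals. The GFP-negative cells came from skin challenged and treated in the same way. CEL-seq2, the assay used, counts reads from the 3′ end of transcripts.

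Each sample held 2678738 to 3262545 counts (GFP-positive) or 2442825 to 2519106 counts (GFP-negative), and 10068 to 11311 genes were detected. Levels are given as CPM, counts scaled to library size by TMM. The share of counts on mitochondrial transcripts was 29.3% and 30.1% in GFP-positive samples, against 35.8% and 36.7% in GFP-negative samples. Pearson's correlation of log2 CPM across genes was 0.901 between the GFP-positive samples, 0.887 between the GFP-negative samples and 0.853 to 0.860 between the groups. Differences are log2 values ± SE from edgeR's quasi-likelihood test, and a gene was called under a Benjamini-Hochberg adjusted p of 0.05. In what follows, rose and fell mean higher and lower in GFP-positive than in GFP-negative samples, not a change from day 0. Whether samples A and B stem from different mice is nowhere stated. The p-values therefore speak only to the spread within groups over all 17 samples in the fit, which may be technical.

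The labels were checked first. Nr4a1, the gene behind the reporter, stood at 3863 and 3614 CPM in GFP-positive samples and at 1342 and 1343 CPM in GFP-negative samples (log2 1.48 ± 0.19). This difference describes the sort. The day 0 samples, also GFP-negative, held 2050, 1431 and 1833 CPM of Nr4a1, above the GFP-negative samples of code 4. The transcript of the reporter itself, eGFP, was scarce, at 5.55 and 10.2 CPM against 11.1 and 9.92 CPM, and was not called (-0.43 ± 0.99). In code 3, eGFP had 20.1 and 11.7 CPM against 1.59 and 5.81 CPM, and the difference between arms did not pass (-2.51 ± 1.39). Both states carried the genes of the CD8 TRM gate. Cd69 had 189.7 and 288 CPM in GFP-positive samples, against 284 and 258 CPM in GFP-negative samples. Itgae, which encodes CD103, had 31.7 and 51.3 CPM against 82.1 and 58.7 CPM, and its difference of -0.77 ± 0.27 did not pass (adjusted p = 0.0891). Cd4 and Ms4a1, which mark CD4 T cells and B cells, were at 0 in all 4 samples.

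Called higher in the GFP-positive state were 470 genes (4.06% of those tested), and 465 were called lower (4.01%). The counts called in each gene list below are to be read beside these shares. Chemokine, cytokine and granzyme genes were among the abundant higher ones. Of the called genes, 352 higher and 405 lower genes had a fitted difference over 2-fold. Among them, 39 of the higher genes had no count in GFP-negative cells and 44 of the lower genes had none in GFP-positive cells, for which the fitted value is no measure of size. Of all tested genes, 21.2% had both GFP-positive samples above both GFP-negative ones and 21.0% had both below, as did all 470 of the called higher genes and 463 of the 465 called lower ones. The median difference over all tested genes with a count was -0.03. With GFP-positive A left out 313 genes were called higher, 283 of them among the 470, and 330 lower, 211 of them among the 465. Without GFP-positive B these were 313 (291 shared) and 313 (214 shared). Without GFP-negative A they were 408 (296 shared) and 333 (270 shared), and without GFP-negative B 338 (253 shared) and 310 (252 shared).

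**Figure D1:**
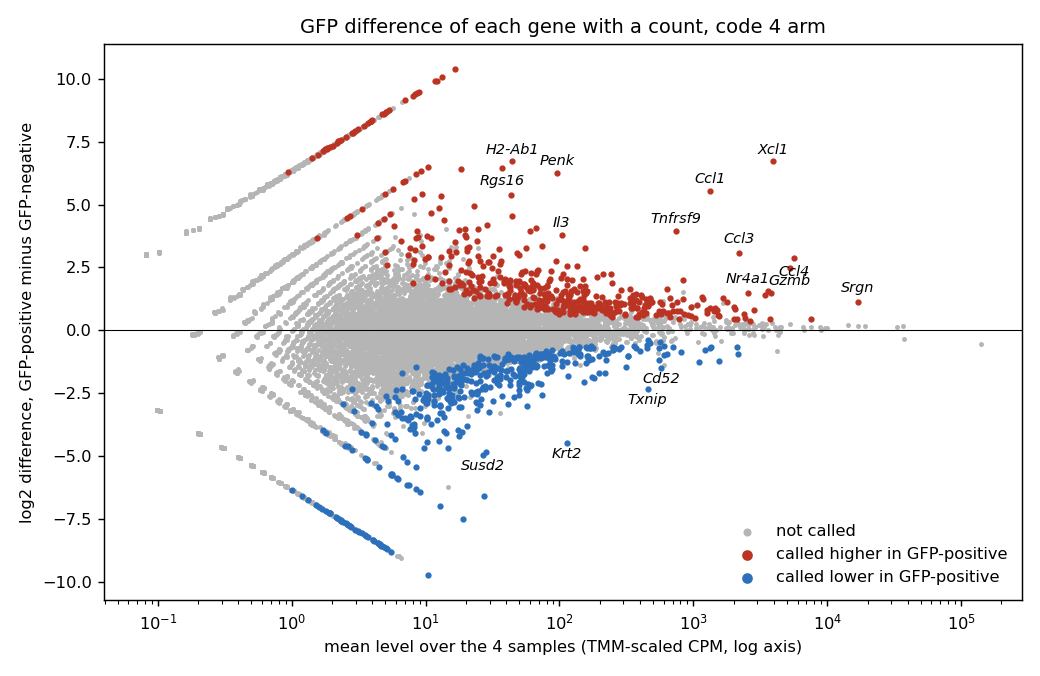
Log2 difference of GFP-positive minus GFP-negative cells (y axis) against the mean level over the 4 samples (x axis, CPM on a log axis), 1 point per gene with a count; red genes were called higher, blue genes lower, grey genes not called. Xcl1 (6.72) and Ccl1 (5.54) stand above the other abundant genes, and Krt2 (-4.46) and Susd2 (-4.98) are the lowest of the genes named in the plot; the straight bands at the edges are genes with few or no counts in 1 group.

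Of the tested genes averaging over 100 CPM across both states, the chemokine genes Xcl1 and Ccl1 differed most. The order depends on that cut: Penk, with means of 188.8 and 2.43 CPM, fell just under it and had a larger value than Ccl1 (6.27). Xcl1, annotated as ENSMUSG00000026573.7 on the minus strand of chromosome 1 from 164931644 to 164935527 (GRCm38), encodes lymphotactin, which attracts cross-presenting dendritic cells. It had 7824 and 7845 CPM in GFP-positive samples, against 77.1 and 71.0 CPM in GFP-negative samples (log2 6.72 ± 0.19, adjusted p = 3.49e-15). Ccl1, a ligand of CCR8, had 2623 and 2626 CPM against 64.8 and 48.0 CPM (5.54 ± 0.18). For both genes the GFP-positive replicates were nearly equal and far above the GFP-negative ones. Ccl3 (ENSMUSG00000000982.5; chromosome 11, 83647844 to 83649355, minus strand), a ligand of CCR1, had 3859 and 4016 CPM in GFP-positive samples, against 455 and 486 CPM in GFP-negative samples (3.06 ± 0.16). Ccl4, which encodes a related chemokine, had 8586 and 11393 CPM against 1334 and 1422 CPM (2.86 ± 0.22). In each case every GFP-positive sample was above both GFP-negative ones. That held for all 470 genes called higher and for 21.2% of all tested genes, so it adds nothing to the calls. Of 9 chemokine genes tested, 7 were higher and none lower (median 2.95), the other called members being Ccl9 (2.95), Cxcl10 (1.81) and Cxcl16 (6.20). Ccl5, a chemokine gene that memory CD8 T cells transcribe at rest, had 79.7 and 94.4 CPM in GFP-positive samples against 169 and 113 CPM in GFP-negative samples and did not pass (-0.70 ± 0.25), nor did Ccl20.

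The promoter windows of 3 chemokine genes and of Il2 are shown because the results turn on these secreted factors. Windows run from 250 bases before to 50 bases after the start, 5′ to 3′ on the gene's strand, from RefSeq on GRCm38.p6: chr1:164935473-164935772 (minus) for Xcl1, chr11:82179763-82180062 (minus) for Ccl1, chr11:83649329-83649628 (minus) for Ccl3 and chr3:37125905-37126204 (minus) for Il2. Capitals mark matches to the motifs listed after the sequences.
Xcl1: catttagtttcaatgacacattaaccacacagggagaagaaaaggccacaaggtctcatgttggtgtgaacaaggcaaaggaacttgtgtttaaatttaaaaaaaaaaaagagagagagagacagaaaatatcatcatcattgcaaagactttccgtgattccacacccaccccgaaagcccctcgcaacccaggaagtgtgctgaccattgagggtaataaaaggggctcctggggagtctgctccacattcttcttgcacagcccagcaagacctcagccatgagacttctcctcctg
Ccl1: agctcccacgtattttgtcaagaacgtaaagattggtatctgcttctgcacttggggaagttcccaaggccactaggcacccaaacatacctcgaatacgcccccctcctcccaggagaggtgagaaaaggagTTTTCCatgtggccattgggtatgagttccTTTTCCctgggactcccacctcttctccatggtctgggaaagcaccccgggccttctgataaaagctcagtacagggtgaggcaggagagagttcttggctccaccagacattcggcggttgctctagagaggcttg
Ccl3: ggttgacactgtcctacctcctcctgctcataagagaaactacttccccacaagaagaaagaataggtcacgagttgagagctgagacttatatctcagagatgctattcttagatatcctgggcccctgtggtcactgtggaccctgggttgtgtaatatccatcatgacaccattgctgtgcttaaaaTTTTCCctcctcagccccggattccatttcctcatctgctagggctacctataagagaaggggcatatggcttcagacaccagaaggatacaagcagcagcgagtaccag
Il2: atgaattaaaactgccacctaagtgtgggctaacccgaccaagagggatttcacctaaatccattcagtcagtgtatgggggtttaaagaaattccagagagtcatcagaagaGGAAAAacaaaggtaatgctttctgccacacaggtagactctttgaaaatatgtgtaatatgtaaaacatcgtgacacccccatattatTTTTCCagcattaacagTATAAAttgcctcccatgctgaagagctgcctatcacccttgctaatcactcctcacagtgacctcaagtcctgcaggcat

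Both strands were searched for the NFAT core GGAAAA, the AP-1 site TGANTCA, the CRE TGACGTCA, the NF-kB site GGANTTTCC, the Nr4a site (NBRE) AAAGGTCA and the TATA box TATAAA, and an NF-kB match can overlap an NFAT one. The Ccl1 window held 2 NFAT cores, 117 and 87 bases before the start at their first base, and the Ccl3 window held 1, 60 bases before it. The Il2 window held 2 NFAT cores and a TATA box. None of these letters was found in the Xcl1 window. An NFAT core was present in 20.2% of 367 genes called higher with a window, 20.5% of 346 called lower and 20.9% of all 8671 tested. A TATA box was present in 13.9% of the higher genes, 8.96% of the lower genes and 7.42% of all. The AP-1 site was present in 7.90%, 5.49% and 5.12% of these groups, the NF-kB site in 2.18%, 1.73% and 1.41%, the CRE in 3.27%, 2.31% and 3.39%, and the NBRE in 1.09%, 0.578% and 0.796%. These shares are a description of letters in short windows and were not tested.

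Cytokine genes were also higher, 9 of 15 type 1 and growth factor cytokines and 5 of 7 type 2, type 17 and regulatory cytokines, with none lower in either list. Over the alternatives these counts ran from 4 to 9 and from 2 to 5. Ifng (ENSMUSG00000055170.4; chromosome 10, 118441046 to 118445892, plus strand), which encodes interferon gamma, had 1301 and 1371 CPM in GFP-positive samples, against 346 and 319.9 CPM in GFP-negative samples (2.00 ± 0.16). At day 0 it stood between the states, at 749, 666 and 905 CPM. Il3, a growth factor for mast cells and basophils, had 185 and 202 CPM against 15.7 and 12.3 CPM (3.79 ± 0.25). Il2, the T cell growth factor gene, was scarce in both states, with 14.4 and 22.8 CPM against 2.06 and 2.78 CPM (2.92 ± 0.50). No GFP-negative sample reached a GFP-positive one in these 3 genes, as in all 470 genes called higher. Tnf, which encodes the inflammatory cytokine TNF, overlapped, with 49.0 and 90.3 CPM in GFP-positive samples and 67.6 and 58.3 CPM in GFP-negative samples (0.14 ± 0.30, adjusted p = 0.854). Further members that rose were Mif (1.65 ± 0.21), Tnfsf11, which encodes RANKL (2.72 ± 0.39), Csf2, which encodes GM-CSF (3.68 ± 0.95), Lta (1.35 ± 0.38), Tnfsf8 (4.13 ± 1.02) and Tnfsf14 (3.68 ± 1.08). The median was 1.65 over the first list, or 1.83 with genes at 0 in 1 group taken at their bound.

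Of the second cytokine list, Penk, which encodes the opioid precursor proenkephalin, had 178 and 199 CPM in GFP-positive samples, against 2.47 and 2.38 CPM in GFP-negative samples (6.27 ± 0.76). Areg, which encodes the epithelial growth factor amphiregulin, had 187 and 199 CPM against 37.5 and 27.8 CPM (2.56 ± 0.24). Il13, a type 2 cytokine gene, had 42.4 and 31.3 CPM against 4.95 and 0.794 CPM (3.69 ± 0.50). All 3 were apart between the groups, as was every gene called higher. Il10, an anti-inflammatory cytokine gene, was less even between replicates, at 64.3 and 24.8 CPM against 1.24 and 6.35 CPM (3.54 ± 0.54). Tgfb1 also rose (2.60 ± 0.69). The median of the list was 3.54, or 2.60 with genes at 0 in 1 group at their bound.

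**Figure D2:**
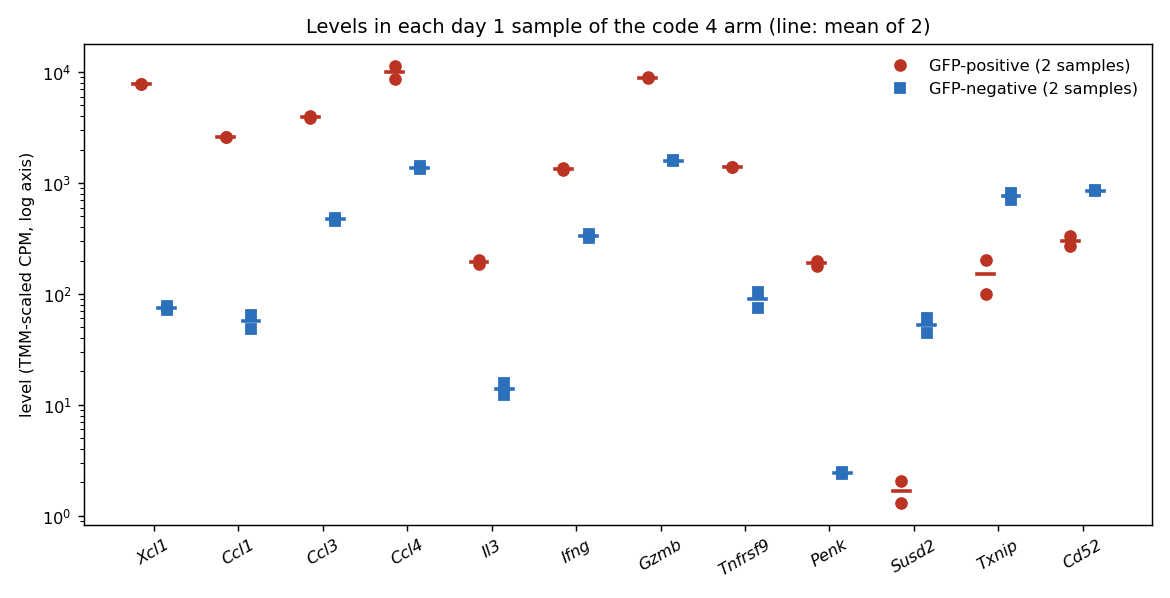
Level of 12 genes in each day 1 sample of the code 4 arm (y axis, CPM on a log axis), GFP-positive samples as red circles on the left and GFP-negative samples as blue squares on the right of each gene, with a line at the mean of 2. For 9 genes, from Xcl1 to Penk, the red points lie above the blue ones; for Susd2, Txnip and Cd52 they lie below.

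Cytotoxic granule genes were split between members. Gzmb (ENSMUSG00000015437.5; chromosome 14, 56258838 to 56262260, minus strand), which encodes granzyme B, a protease that triggers death of target cells, had 9022 and 8823 CPM in GFP-positive samples, against 1606 and 1573 CPM in GFP-negative samples (2.49 ± 0.14). Gzmc had 268 and 294 CPM against 30.9 and 27.0 CPM (3.28 ± 0.32), and Gzmf rose by 1.80 ± 0.28. Srgn, which encodes serglycin, the proteoglycan that packs granules, had 22355 and 24060 CPM against 11131 and 10195 CPM (1.12 ± 0.10). The granzymes are close paralogs, and reads may be split between them. The protease inhibitor genes Serpinb9 (2.24) and Serpinb6b (1.61), which protect the killer cell, were higher too. Of 11 members tested 6 were higher and 1, Ctsw, was lower (-0.65), with a median of 1.13. The perforin gene Prf1 had 25.5 and 41.9 CPM in GFP-positive samples against 12.4 and 18.3 CPM in GFP-negative samples and did not pass (1.13 ± 0.40, adjusted p = 0.093). Gzma (0.28 ± 0.20) and Nkg7 (0.24 ± 0.13) did not pass either.

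Transcription factors of the TCR response were higher in part. Among 8 Nr4a and Egr genes, 4 were called, all higher: besides Nr4a1 these were Nr4a2 (148 and 205 CPM against 40.0 and 34.1 CPM; 2.25 ± 0.26), Egr1 (1.41 ± 0.32) and Nab2, a corepressor of Egr factors (2.24 ± 0.36). Nab2 overlaps Stat6 on the opposite strand, and the sources used here do not say how strand entered the counting. Of 14 AP-1, Batf and Irf genes 6 were higher (2 to 6 over the alternatives), among them Irf4, which scales with TCR signal strength, with 33.3 and 27.3 CPM in GFP-positive samples against 4.12 and 1.19 CPM in GFP-negative samples (3.51 ± 0.75). Its relative Irf8 rose by 3.07 ± 0.69, Jund by 0.90 ± 0.15 and Fosl2 by 0.88 ± 0.19, while Fos, Jun, Batf and Myc did not pass.

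Of 13 NF-kB genes 8 were higher (5 to 9 over the alternatives), with a median of 1.29 and none lower. Rel, which encodes c-Rel, the NF-kB subunit that drives lymphocyte activation genes, had 90.4 and 115 CPM in GFP-positive samples against 9.90 and 11.1 CPM in GFP-negative samples (3.29 ± 0.62). Nfkb2, the precursor of p52, had 392 and 387 CPM against 113 and 97.6 CPM (1.89 ± 0.21). The inhibitor genes Nfkbib (2.02 ± 0.29) and Nfkbid (1.29 ± 0.19) rose as well, and so did Nfkb1, Relb, Nfkbia and Traf1. Of 8 NFAT and calcineurin genes only Nfatc1, which NFAT itself induces, was called (1.40 ± 0.35), and the median of that list was -0.54.

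The TCR complex showed small and mixed differences, with 3 of 17 members higher (2 to 5 over the alternatives), 2 lower and a median of 0.25. Cd8a, the CD8 alpha chain gene, had 937 and 1043 CPM in GFP-positive samples against 575 and 598 CPM in GFP-negative samples (0.75 ± 0.13), whereas Cd8b1, the beta chain gene, fell by 0.45 (SE 0.13). Cd3g, a CD3 chain gene, had 584 and 491 CPM against 888 and 839 CPM (-0.68 ± 0.14), and Cd3e did not pass (0.08 ± 0.16). The kinase gene Zap70, which relays the TCR signal, rose by 1.49 ± 0.24.

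Among 29 genes that restrain TCR or cytokine signals, 6 were higher and 2 lower, with a median of 0.14. Rgs16, which damps signals of G protein-coupled receptors such as chemokine receptors, had 70.2 and 77.3 CPM in GFP-positive samples, against 1.65 and 0 CPM in GFP-negative samples (6.46 ± 0.73). The phosphatase genes Dusp2 (1.28 ± 0.23), with 710.5 and 639 CPM against 268 and 289 CPM, and Ubash3b (2.71 ± 0.40) were higher, as were Dusp4 (1.81), Sla (1.84) and the adaptor gene Sh2d2a (1.14 ± 0.18). Pik3ip1, an inhibitor of PI3 kinase, had 3.92 and 12.2 CPM in GFP-positive samples against 61.9 and 49.6 CPM in GFP-negative samples (-2.80 ± 0.53). Its day 0 levels, 3.35, 5.47 and 4.49 CPM, were near those of GFP-positive samples. In code 3 it had 0.529 and 0.574 CPM against 1.39 and 2.08 CPM. Socs1, Socs3, Cish and Ptpn22 did not pass.

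In the costimulatory TNF receptor family 4 of 9 genes were higher and none lower, with a median of 0.96. Tnfrsf9 (ENSMUSG00000028965.13; chromosome 4, 150914562 to 150946102, plus strand), which encodes the costimulatory receptor 4-1BB, had 1395 and 1387 CPM in GFP-positive samples, against 75.1 and 104 CPM in GFP-negative samples (3.95 ± 0.22). Tnfrsf18, which encodes GITR, had 156 and 159 CPM against 53.6 and 56.0 CPM (1.53 ± 0.24). Tnfrsf4, which encodes OX40, rose by 2.34 ± 0.52, and Cd27, which overlaps Vamp1 on the opposite strand, by 2.04 ± 0.36. At day 0, Tnfrsf9 stood at 61.1, 49.6 and 66.6 CPM.

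Of 15 inhibitory receptor genes 2 were higher and none lower, with a median of 0.50. Havcr2, which encodes TIM-3, had 577 and 597 CPM in GFP-positive samples against 189 and 256 CPM in GFP-negative samples (1.40 ± 0.24), and Cd160 had 114 and 139 CPM against 11.5 and 3.57 CPM (4.06 ± 0.73). Pdcd1, which encodes PD-1, did not pass (0.51 ± 0.28), nor did Ctla4 (0.23 ± 0.63) or Lag3 (1.13 ± 1.36). Among 7 killer lectin-like receptor genes 1, Klrk1, which encodes NKG2D, was lower (-0.62 ± 0.19), a call lost with other size factors.

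Of 19 cytokine receptor genes 3 were higher, 1 was lower and 15 did not pass (median 0.42). The genes for 2 chains of the IL-2 receptor were higher. Il2rg, the common gamma chain, had 5489 and 5756 CPM in GFP-positive samples against 1978 and 1999 CPM in GFP-negative samples (1.50 ± 0.13), and Il2ra, which encodes CD25, had 245 and 213 CPM against 34.2 and 44.1 CPM (2.55 ± 0.45). Ifngr1, a chain of the interferon gamma receptor, had 208 and 130.2 CPM against 457 and 465 CPM (-1.45 ± 0.22). Its day 0 levels, 206, 153 and 150 CPM, were near those of GFP-positive samples. Il2rb, Il7r and Il15ra did not pass.

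Of 14 tissue residency genes 2 were higher, 1 was lower and the rest did not pass (median -0.14). Apart from Xcl1, which is also on that list, Rgs2 rose (2409 and 2431 CPM against 1180 and 1066 CPM; 1.11 ± 0.11). Cdh1, which encodes E-cadherin, fell to 39.5 and 49.2 CPM in GFP-positive samples, against 123 and 138 CPM in GFP-negative samples (-1.56 ± 0.21). Itga1, Cxcr6, Prdm1 and Runx3 did not pass. Of 10 tissue exit and recirculation genes, Ccr7 was higher and Tcf7 lower (-1.97 ± 0.58). Ccr7 rested on 47 counts against 2 (21.0-fold, 95% counting interval 5.51 to 179, which leaves out the spread between samples). Its GFP-positive samples were uneven, at 2.29 and 16.3 CPM, against 0.825 and 0 CPM in GFP-negative samples. Of 13 chemokine receptor and integrin genes, Itgb2 (1.09 ± 0.22) and Itgav (1.48 ± 0.45) were higher and Itgb7 (-1.93 ± 0.36) and Ccr2 lower, Ccr2 having 0 counts against 10.

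Of 34 ribosome biogenesis and translation initiation genes 15 were higher, 19 did not pass and none was lower (median 1.08). Eif5a, a translation factor, had 4749.9 and 5233 CPM in GFP-positive samples against 1925 and 1873 CPM in GFP-negative samples (1.39 ± 0.12). Npm1, the nucleolar protein nucleophosmin, had 1670 and 1633 CPM against 635 and 771 CPM (1.23 ± 0.13), and Ncl (1.23 ± 0.17) and Nop56 (1.35 ± 0.19) moved with it. Of 22 glycolysis and glucose uptake genes 7 were higher, 15 did not pass and none was lower (median 0.46), with 3 to 9 higher over the alternatives. They include the glucose transporter gene Slc2a3 (2.77 ± 0.42), Ldha, with 1282 and 1078 CPM against 564 and 445 CPM (1.22 ± 0.18), Pgk1 (1.31 ± 0.15) and the lactate transporter gene Slc16a1 (1.88). Serine synthesis and amino acid transport genes had 5 of 21 higher and 16 that did not pass (median 0.89; 2 to 9 higher over the alternatives), among them Mthfd2 (1.80 ± 0.34), Slc7a5 (1.78 ± 0.34), Slc7a1 (1.77 ± 0.38) and Slc1a5 (1.09 ± 0.22).

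Of 26 chaperone genes 12 were higher, 14 did not pass and none was lower (median 0.76). Hsp90ab1 had 2446 and 2799 CPM in GFP-positive samples against 1345 and 1412 CPM in GFP-negative samples (0.93 ± 0.12), and the endoplasmic reticulum chaperone genes Calr (1.29 ± 0.17) and Hspa5 (1.04 ± 0.18) rose as well. Nuclear genes of the respiratory chain had 8 of 50 higher and 1 lower (median 0.15), with Cycs, which encodes cytochrome c, at 1.02 ± 0.18. Between none and 12 of these 50 were called under the alternatives. None of the 15 mitochondrially encoded transcripts and none of the 22 cholesterol synthesis genes were called, the medians being 0.11 and -0.42. Of 40 cell cycle genes 3 were higher (2 to 5 over the alternatives) and 2 lower (median -0.07): Ccnd2 (1.08 ± 0.17), Pcna (0.87 ± 0.15) and the scarce Tyms were higher, and Tubb5 (-0.71 ± 0.17) and Hmgb2 (-1.01) lower. Of 20 Bcl2 family and survival genes 1 was higher, 1 was lower and 18 did not pass. The stress gene Gadd45b had 331 and 362 CPM in GFP-positive samples against 75.9 and 72.6 CPM in GFP-negative samples (2.22 ± 0.21). Bcl2, which prolongs survival, was lower (-0.96 ± 0.27).

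**Figure D3:**
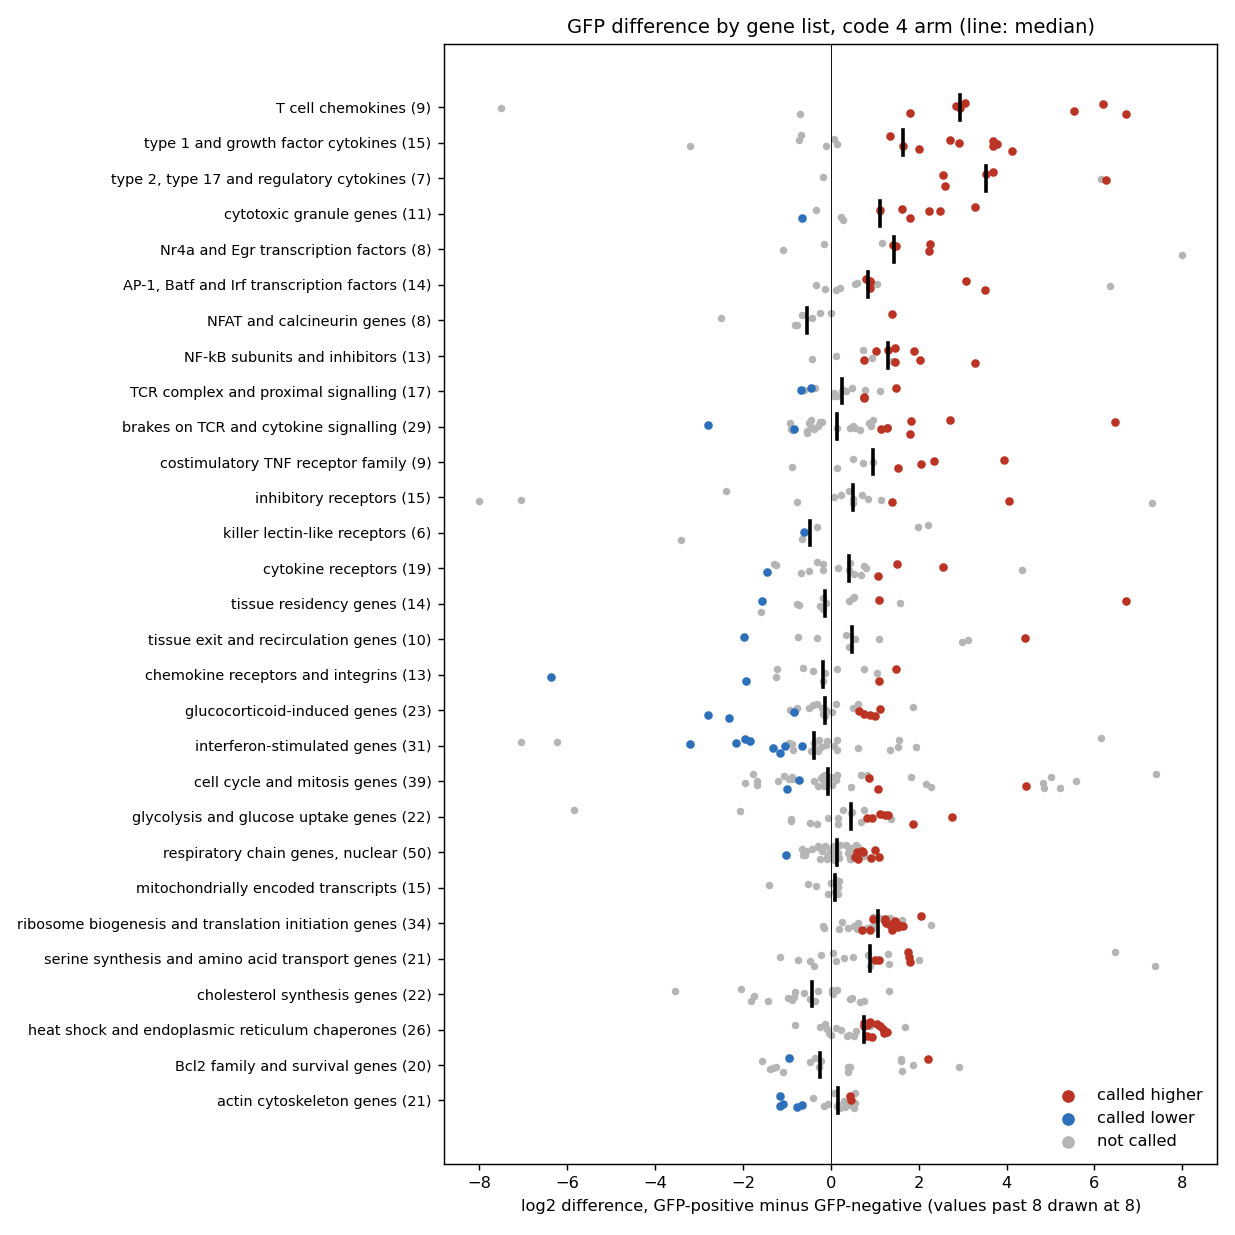
Log2 difference of GFP-positive minus GFP-negative cells (x axis) for the members of 29 gene lists (rows, with the number of members with a count), 1 point per gene, red for called higher, blue for called lower and grey for not called; the black line is the median of the list. Chemokines (median 2.95), ribosome biogenesis genes (1.08) and chaperones (0.76) hold called genes on the right only, and interferon-stimulated genes on the left only.

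Interferon-stimulated genes were lower or did not pass, 8 of 35 lower and none higher (median -0.38). Ly6e had 1067 and 1033 CPM in GFP-positive samples against 1612 and 1716 CPM in GFP-negative samples (-0.66 ± 0.12). The interferon signalling gene Irf9, with 4.24 and 4.88 CPM against 23.1 and 17.9 CPM (-2.16 ± 0.48), fell, and so did the GTPase gene Gbp4 (-1.95 ± 0.39) and the immunoproteasome genes Psmb8 (-1.04 ± 0.24) and Psmb9 (-1.85). Isg15, Ifit1, Ifit3 and Mx1 did not pass. The count of lower members ran from 1 to 10 over the alternatives.

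Of 22 actin cytoskeleton genes 5 were lower (3 to 6 over the alternatives) and 2 higher. Tmsb4x, which encodes thymosin beta 4, had 1629 and 1675 CPM in GFP-positive samples against 2611 and 2598 CPM in GFP-negative samples (-0.66 ± 0.11). Coro1a had 101 and 105 CPM against 224 and 217 CPM (-1.10 ± 0.16), and Vim, which encodes vimentin, had 871 and 938 CPM against 1449 and 1627 CPM (-0.77 ± 0.11). Lsp1 and Tagln2 were lower as well, Actg1 (0.46) and Cfl1 (0.45) slightly higher, and the median was 0.17.

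Genes known to be induced by glucocorticoids did not move one way, with 5 of 23 higher, 3 lower and a median of -0.14, and over the alternatives 2 to 5 were higher and 1 to 3 lower. Tsc22d3, which encodes GILZ, had 151 and 151 CPM in GFP-positive samples against 312 and 232 CPM in GFP-negative samples (-0.85 ± 0.23). Txnip, which restrains glucose uptake, had 202 and 100.5 CPM against 702 and 818 CPM (-2.33 ± 0.27). Its day 0 levels were 331, 198 and 299 CPM. Fkbp5 overlapped between the groups, at 53.9 and 40.7 CPM against 47.4 and 59.1 CPM, and did not pass (-0.17 ± 0.36). The metallothionein genes Mt2 (1.13 ± 0.18) and Mt1 (0.64), close paralogs, were higher, and so was the cell cycle inhibitor gene Cdkn1a (1.00 ± 0.14). In code 3, Fkbp5 had 15.2 and 9.19 CPM in GFP-positive samples against 16.1 and 16.5 CPM in GFP-negative samples. Tsc22d3 had 52.1 and 45.7 CPM against 94.2 and 116 CPM there, also below code 4. Mt2 was above code 4 there, at 867 and 1231 CPM against 2052 and 1655 CPM. Such differences of level between arms were not tested.

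Outside the lists, genes with few or no counts in 1 group gave the largest fitted values. Slco4a1, an organic anion transporter gene, and Tgif2, a repressor gene of TGF-beta signalling, had 130 and 131 counts over both GFP-positive samples and none in GFP-negative ones, at least 38.8-fold and 39.1-fold higher when 3 counts over the GFP-negative samples are taken as the floor. Alcam, an adhesion molecule gene and ligand of CD6, had 137 counts against 3 (40.9-fold, 95% counting interval 13.7 to 201). Cd83 (55.5 and 33.0 CPM against 0 and 2.78 CPM) and Timp3 (100.2 and 68.3 CPM against 0 and 3.97 CPM), an inhibitor of metalloproteinases, were higher too. Ms4a4c had 113 counts against 1.

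Among the lower genes, Susd2 (ENSMUSG00000006342.15; chromosome 10, 75636706 to 75644008, minus strand), a membrane protein gene, had 1.31 and 2.03 CPM in GFP-positive samples against 60.2 and 44.4 CPM in GFP-negative samples (-4.98 ± 0.41). Acss2, which makes acetyl-CoA from acetate, had 0.653 and 3.25 CPM against 50.7 and 58.3 CPM (-4.86 ± 0.87), and Haus4, a subunit of the augmin complex of the spindle, had 1.31 and 0.814 CPM against 30.9 and 26.2 CPM (-4.69 ± 0.66). Cox15, an enzyme gene of heme A synthesis, had 0.979 and 0 CPM against 54.0 and 54.0 CPM, and overlaps Entpd7 and Cutc on the opposite strand. The rule that picked these 4 genes asked for samples apart, so their lack of overlap adds nothing. Of all tested genes, 21.0% were apart in this direction. Clec11a was carried by 1 sample, with 0 and 0 CPM in GFP-positive samples against 40.8 and 1.19 CPM in GFP-negative samples.

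Several calls given above or below were lost when 1 sample was left out, which leaves 1 sample in a state. Ccr2, Cd8b1, Cfl1, Col1a2, Hmgb2, Slc16a1, Tcf7 and Tnfsf14 were lost whichever of the 4 samples was left out. Over these fits Tcf7 ran from -2.09 to -1.87 and Slc16a1 from 1.69 to 2.07, close to their values with all samples, whereas Krt17 ran from 0.61 to 2.70 and Cxcl10 from 1.17 to 2.49. Without GFP-negative A (adjusted p = 0.0509 to 0.314) the genes Actg1, Ccr2, Ccr7, Cd8b1, Cfl1, Clec11a, Col1a2, Csf2, Ctss, Cxcl10, Dusp4, Hmgb2, Itgav, Klrk1, Krt16, Krtdap, Lta, Nfkbia, Psmb9, Sla, Slc16a1, Slc7a1, Tcf7, Tgfb1, Tnfrsf4, Tnfsf14, Tnfsf8, Traf1, Tsc22d3 and Tyms no longer passed. Without GFP-negative B (0.0505 to 0.291) these were, of the same list, Ccr2, Ccr7, Cd8b1, Cfl1, Col1a2, Csf2, Ctss, Cxcl10, Dusp4, Hmgb2, Itgav, Klrk1, Krtdap, Slc16a1, Tcf7, Tgfb1, Tnfsf14, Tnfsf8 and Tyms, and in addition Bcl2, C1qb, Irf4, Krt17, Lsp1, Mt1, Nfatc1, Nfkb1, Psmb8, Relb, Sbsn, Tagln2 and Tubb5. Leaving out GFP-positive A (0.0518 to 0.679) also removed the calls of Ctsw, Egr1, Fosl2, Irf8 and Irf9, beside Bcl2, Ccr2, Cd8b1, Cfl1, Clec11a, Col1a2, Ctss, Cxcl10, Dusp4, Hmgb2, Itgav, Klrk1, Krt16, Krt17, Lta, Mt1, Nfatc1, Nfkb1, Nfkbia, Relb, Sbsn, Slc16a1, Slc7a1, Tcf7, Tgfb1, Tnfsf14, Tsc22d3, Tubb5 and Tyms. Leaving out GFP-positive B (0.0506 to 0.428) removed those of Cd3g, Gbp4 and Itgb2, beside Actg1, Ccr2, Ccr7, Cd8b1, Cfl1, Clec11a, Col1a2, Csf2, Hmgb2, Irf8, Lta, Psmb8, Psmb9, Relb, Sbsn, Sla, Slc16a1, Tcf7, Tnfsf14, Tnfsf8 and Tsc22d3. The chemokine genes Xcl1, Ccl1, Ccl3 and Ccl4 and Ifng, Il3, Penk, Gzmb, Tnfrsf9, Rgs16 and Susd2 passed under each of these 4 settings.

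Transcripts of other skin cells also differed between the states. Of 21 keratinocyte markers 5 were higher and 4 lower, and their summed level was 822 and 685 CPM in GFP-positive samples, against 723 and 958 CPM in GFP-negative samples. Krt14, the keratin of the basal layer, had 305 and 310.0 CPM against 64.3 and 79.0 CPM (2.10 ± 0.23), and Krt6a, a keratin of wounded and inflamed epidermis and a near copy of Krt6b, had 80.3 and 48.0 CPM against 5.77 and 7.94 CPM (3.22 ± 0.55). The keratins of upper layers went the other way: Krt2 had 14.7 and 4.47 CPM against 191 and 246 CPM (-4.46 ± 0.35), and Krt10 had 23.8 and 18.7 CPM against 104 and 152 CPM (-2.58 ± 0.26). Krt16 and Krt17 were higher, Krtdap and Sbsn lower, and Ivl was at 0 in all 4 samples. At day 0, Krt14 stood at 1290, 983 and 763 CPM and Krt2 at 492, 712 and 628 CPM, above both states. Krt6a stood at 1.76, 2.38 and 2.99 CPM at day 0, below both states.

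Of 20 mononuclear phagocyte markers 5 were higher and 1, Ctss, was lower, with sums of 392 and 446 CPM in GFP-positive samples against 108 and 127 CPM in GFP-negative samples. The MHC class II gene H2-Ab1, which presents antigen to CD4 T cells, had 87.8 and 88.3 CPM against 0 and 1.59 CPM (6.73 ± 0.47). H2-Aa had 123 and 105 CPM against 2.47 and 12.3 CPM (3.93 ± 0.58). At day 0, H2-Ab1 stood at 60.9, 67.3 and 65.1 CPM and H2-Aa at 108, 79.4 and 40.2 CPM. Cd74, which encodes the invariant chain, was higher by 3.26 ± 0.52, and C1qb had 55 counts against 0, at least 16.4-fold higher on the same floor. Of the 22 markers listed, Lyz2, Mrc1 and Cd209a were at 0 in all 4 samples. Csf1r, C1qa, C1qc, Emr1, Ccl17 and Mgl2 were at 0 in GFP-negative samples and had counts in GFP-positive samples. Among 9 fibroblast markers Mmp3 (94 counts against 0, at least 28.1-fold) and Col1a2 were higher, at sums of 61.1 and 65.9 CPM against 41.7 and 16.3 CPM. No neutrophil marker was called (70.5 and 38.2 CPM against 24.7 and 22.6 CPM). The part of these cells' transcripts in the differences above was not tested, and with their markers left out 453 genes were higher and 462 lower. In bulk samples, more cells of a type and more RNA per cell cannot be told apart.

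Of 8 CD4 and regulatory T cell markers 3 were higher, Il2ra, Tnfrsf4 and Nrp1 (34.0 and 40.3 CPM against 2.89 and 1.59 CPM; 4.04 ± 0.70), which activated CD8 T cells can express too, and Foxp3 was at 0 in GFP-positive samples. NK and innate lymphoid markers gave no call (53.5 and 48.0 CPM against 118 and 105 CPM).

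**Figure D4:**
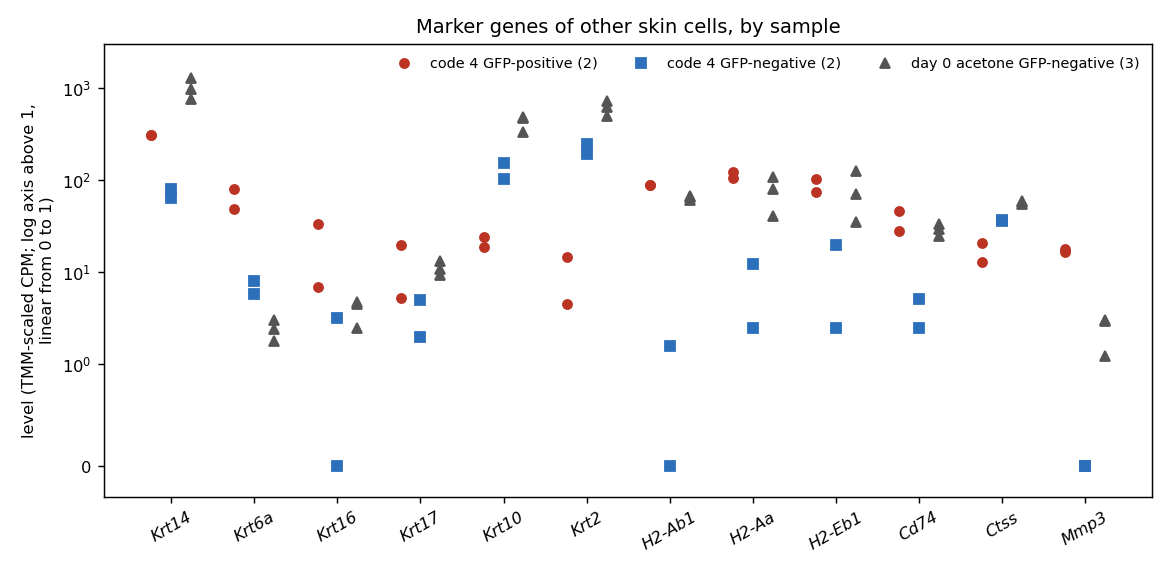
Level of 12 marker genes of other skin cells (y axis, CPM, log above 1 and linear from 0 to 1) in code 4 GFP-positive samples (red circles), code 4 GFP-negative samples (blue squares) and the 3 day 0 acetone samples (grey triangles). Basal and stress keratins and MHC class II genes lie higher in GFP-positive than in GFP-negative samples. Krt10, Krt2 and Ctss lie lower. At day 0, H2-Ab1 lies between the 2 states, Krt14, Krt10 and Krt2 above both, and Krt6a below both.

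The GFP difference of the code 4 arm was then set against that of the code 3 arm, with a test of the difference between them. It passed in 103 genes (0.889% of those tested), with a higher value in code 4 for 74 and a lower one for 29. Of the 470 genes that rose with GFP in code 4, 50 differed between arms, and of the 465 lower genes 27. Of the 15 type 1 and growth factor cytokines 4 differed between arms, and none of the 7 of the second cytokine list did. Without code 3 GFP-negative A the count was 47, without code 3 GFP-positive A 47, and without code 3 GFP-positive B 64.

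Il3 stood at 185 and 202 CPM in code 4 GFP-positive samples, against 15.7 and 12.3 CPM in GFP-negative ones, while code 3 had 5642 and 6346 CPM against 11.1 and 16.5 CPM. The difference between arms was -4.96 ± 0.33 (adjusted p = 7.26e-08). Il2 showed the same layout, with 398 and 376 CPM in code 3 GFP-positive samples against 1.19 and 1.49 CPM in its GFP-negative samples (-5.22 ± 0.77). Both genes were low in the GFP-negative samples of both arms, and their GFP-positive samples were far apart. Ccl3 had 21458 and 22745 CPM against 389.6 and 482 CPM in code 3 (-2.60 ± 0.22). Tnf, not called in code 4, had 259.6 and 285 CPM against 32.3 and 38.9 CPM there (-2.79 ± 0.42). Ifng (-1.44 ± 0.22) and Dusp2 (-1.59 ± 0.32) also had a smaller difference in code 4. The call of Dusp2 was lost without code 3 GFP-positive A, code 3 GFP-negative A or code 4 GFP-positive B (adjusted p up to 0.0877).

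For Xcl1 and Ccl1 no such difference passed. The difference between arms was -0.49 ± 0.21 for Xcl1 (adjusted p = 0.356) and -0.11 ± 0.21 for Ccl1 (adjusted p = 0.924), although their levels in code 3 GFP-positive samples were higher, at 21337 and 21509 CPM for Xcl1. Penk (-1.14 ± 1.07) and Rgs16 (0.81 ± 0.99) had wide errors and did not pass.

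Other genes had the larger GFP difference in code 4, among them the 4-1BB and granzyme B genes. Tnfrsf9 in code 3 had 2116 and 2132 CPM in GFP-positive samples against 723 and 561 CPM in GFP-negative samples, so that the arms differed by 2.23 ± 0.28 (adjusted p = 3.20e-04). Gzmb in code 3 had 52494 and 53251 CPM against 25871 and 21192 CPM (1.32 ± 0.19), above code 4 in both states. Il2rg had 4912 and 5499 CPM against 4527 and 4267 CPM there (1.26 ± 0.18), close to code 4 in GFP-positive samples. For Mt2 the arms went in opposite directions, 1.13 ± 0.18 in code 4 and -0.82 ± 0.18 in code 3 (1.95 ± 0.25). Cd8a differed by 0.75 ± 0.13 in code 4 and by -0.26 ± 0.13 in code 3 (1.02 ± 0.19), a call lost without code 3 GFP-positive B, code 3 GFP-negative A or code 4 GFP-positive B (adjusted p up to 0.0773).

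Marker genes of other cells were among those with the largest difference between arms. H2-Ab1 in code 3 was nearly equal, at 199 and 206 CPM in GFP-positive samples against 179.5 and 190.1 CPM in GFP-negative samples, so that the arms differed by 6.59 ± 0.56. Krt14 (2.70 ± 0.31) and Krt2 (-4.14 ± 0.45) differed too. With the marker genes of keratinocytes, phagocytes, neutrophils and fibroblasts left out, 91 genes differed between the arms. Other transcripts of these cells stayed in that fit, so their part in the differences between arms was not tested. Since the header does not name the treatments, the arm codes, the treatment and the depth of the samples, which was 5440609 to 8515297 counts in code 3, cannot be told apart.

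**Figure D5:**
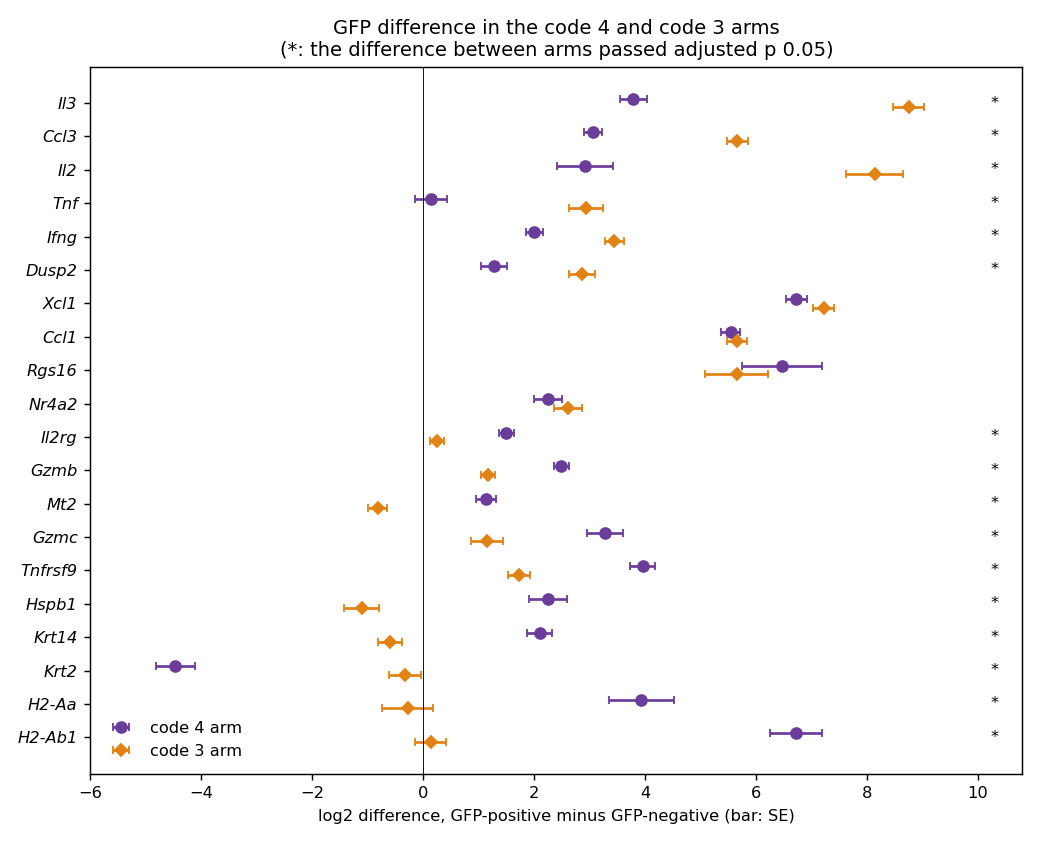
Log2 difference of GFP-positive minus GFP-negative cells (x axis) for 20 genes in the code 4 arm (purple circles) and the code 3 arm (orange diamonds), with the SE as bars; an asterisk marks genes whose difference between arms passed an adjusted p of 0.05. Il3, Ccl3, Il2, Tnf, Ifng and Dusp2 lie further left in code 4, Xcl1, Ccl1, Rgs16 and Nr4a2 carry no asterisk, and Tnfrsf9, Krt14 and H2-Ab1 lie further right.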

How the data were processed

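RNA of sorted skin T cells was sequenced by CEL-seq2 in 17 samples of the first experiment, from which the 4 samples of code 4 are described. The deposited table holds raw counts per gene and sample. The submitters' processing notes name the GRCm38 build, HTSeq, BWA 0.7.15 and bcl2fastq 2.2. The sources used here do not say whether molecular barcodes or strand were used, so the counts are treated as reads, and intervals and floors cover counting error only. Samples were grouped by the GFP state and code in the column headers, since the headers name no treatment.

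In R 4.3.3, edgeR 4.0.16 was fitted to all 17 samples with 1 mean per code and GFP state: filterByExpr, TMM scaling, robust dispersions and the quasi-likelihood F test, with Benjamini-Hochberg adjustment over 11588 genes. The SE is the log2 difference over the square root of F. Contrasts were GFP-positive minus GFP-negative in code 4, and that difference minus the one in code 3. CPM use TMM-scaled library sizes. Gene positions come from GENCODE vM21 (10934 of 11588 genes placed by symbol and chromosome), promoters from RefSeq GRCm38.p6 (the first listed window per gene). The second experiment was not used here.

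The gene lists and tests were chosen with earlier results of these data known. Genes named are Nr4a1, Itgae, Cd69, Cd8a, Tsc22d3 and Fkbp5, the 15 called genes of largest difference in each direction at 20 CPM or more with samples apart, up to 4 called members per list by smallest p, and the 6 genes of smallest p in each direction of the difference between arms, without predicted genes, pseudogenes, receptor segments, mitochondrial and, outside the lists, marker genes. Other genes, named as list members or for comparison, were chosen after their values were seen. Alternatives were median-of-ratios size factors, no filter, DESeq2 1.42.0, a replicate block, fits of fewer samples, transcripts left out, and each sample left out. Results on a few genes are not reported here.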

Additional observations from a re-analysis of the deposited data

Results flagged for a closer look

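For 33 of the 142 genes named by rule, the GFP difference in the code 4 arm differed from that in the code 3 arm by the interaction test of edgeR. Each value below is the log2 GFP difference of code 4 minus that of code 3, and what accounts for it was not tested.

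Cytokine and signalling genes with a smaller GFP difference in code 4 were Il3 (-4.96), Il2 (-5.22), Tnf (-2.79), Ccl3 (-2.60), Dusp2 (-1.59) and Ifng (-1.44). Effector and receptor genes with a larger value were Tnfrsf9 (2.23), Gzmc (2.12), Gzmb (1.32), Il2rg (1.26) and Cd8a (1.02). Cd3g (0.96) was below 0 in both arms and further below 0 in code 3. The metallothionein gene Mt2 (1.95), the small heat shock protein gene Hspb1 (3.35), the glycolysis gene Pgk1 (0.95) and the translation factor gene Eif5a (0.75) had larger values too. The interferon-induced genes Ifitm1 (1.43) and Ifitm2 (1.46), close paralogs, and the cytoskeleton genes Vim (0.81) and Tmsb4x (0.80) had larger values, with a GFP difference below 0 in both arms and further below 0 in code 3.

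Low-count genes of code 4 were Ms4a4c (4.71), Strada (-6.92), Cox15 (-7.28), Pygl (-3.86) and Smyd3 (-3.26). Their fitted values rest on 1 to 12 counts in the lower state of code 4. Strada overlaps Ccdc47 on the same strand. Cox15 overlaps Entpd7 and Cutc on the opposite one, and the sources used here do not say how strand entered the counting.

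Marker genes of other skin cells were Krt6a (4.33), Krt14 (2.70), Krt10 (-2.43) and Krt2 (-4.14) for keratinocytes, H2-Ab1 (6.59), H2-Aa (4.21) and Cd74 (3.10) for phagocytes, and Mmp3 for fibroblasts. The fitted 10.5 of Mmp3 is no measure of size, since code 4 GFP-negative samples held no count.

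Of these 33 differences, 18 passed under every alternative run. Lost under at least 1 were those of Cd3g, Cd8a, Dusp2, Gzmc, Eif5a, Pgk1, Vim, Tmsb4x, Krt6a, H2-Aa, Cd74, Ms4a4c, Pygl, Smyd3 and Strada. With each of the 8 day 1 samples left out in turn, Cd3g, Cd74, Eif5a, Gzmc, Ms4a4c and Pgk1 were lost in 6 of 8 fits.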

How the results depend on the processing

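No called difference of the 142 genes named by rule, in code 4 or between arms, turned round under the alternatives that gave it a value; 10 had none with marker genes left out, 4 none in the fit of 4 samples and 1 none in that of 8. With DESeq2's Wald test 746 genes were called higher, 731 lower and 321 different between arms. With only the 8 day 1 samples in the fit 217 genes were lower and 68 differed between arms, and with only the 4 samples of code 4, 177 were higher and 65 lower. Without the low-count filter 310 genes differed between arms. Size factors by median of ratios gave 478 higher and 459 lower genes. With each code 4 sample left out in turn, 313 to 408 genes were higher and 310 to 333 lower. With each day 1 sample left out, 47 to 104 differed between arms: 47 without code 3 GFP-negative A, 47 without code 3 GFP-positive A and 64 without code 3 GFP-positive B. The cause of these changes was not tested. A lone sample was assumed to vary like the other groups.

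With a replicate block by sample letter, 434 genes were higher, 457 lower and 85 different between arms. Whether same-lettered samples share an animal or a sort is not stated. Their deviations from the group means correlated by 0.00717 in code 4 and -0.0213 in code 3. These values span all tested genes, scarce ones included, and cannot settle that question.

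Of 142 genes named by rule, 136 were called, 84 of them under all alternatives run. With only 4 samples, 40 of the 142 were no longer called. Depth limits genes with few counts in a state, for which intervals are wide.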

Other observations

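Further genes lower in GFP-positive cells are given, chosen after their values were seen from those of smallest p. Cd52, a surface glycoprotein gene of lymphocytes, had 335 and 271 CPM in GFP-positive samples against 862 and 839.8 CPM in GFP-negative samples (log2 -1.49 ± 0.13). The calcium-binding protein genes S100a6, with 648 and 644 CPM against 1661 and 1437 CPM (-1.26 ± 0.13), and S100a4, with 402 and 405 CPM against 859 and 752 CPM, were lower as well. Sh3bgrl3 (-1.21 ± 0.13) and the LIM protein gene Crip1 (-1.19 ± 0.13) followed. In these 5 genes no GFP-positive sample reached a GFP-negative one, as in 463 of the 465 genes called lower. Tspo, which encodes a mitochondrial membrane protein, had 63.3 and 87.1 CPM against 255 and 296 CPM (-1.88 ± 0.21).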
